A study of Danio rerio with 3 samples.

Results

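The embryonic globin genes hbae1, hbae3 and hbbe1.1 are 3 of the 14581 gene symbols listed for endothelial cells sorted from zebrafish embryos. They were taken by their symbols, with earlier results of these data known. Hemoglobin is built from alpha and beta globin chains, each holding a heme group, and it carries oxygen in red blood cells. Zebrafish, like mammals, use embryonic globin genes early and adult ones later, and the fish genes for alpha and beta chains lie mixed within the same clusters. Red cells of the embryo and larva have a nucleus and go on circulating within the vessels from which endothelial cells are prepared.

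The series holds 3 RNA libraries, 1 for each of 3 populations sorted by flow cytometry from whole wild-type embryos at 72 hours after fertilization, with no treatment. They are double positive cells that carried kdrl:mCherry and sele:GFP signal, cells positive for kdrl:GFP, and cells negative for kdrl:GFP. The kdrl reporters mark endothelium through the regulatory region of a Vegf receptor gene, and the sele reporter uses that of E-selectin, a leukocyte adhesion molecule. Between 10000 and 300000 cells were collected per population from homogenized embryos, so a library pools embryos. The values below are those of the double positive library. Both value columns of the other table carry codes that no label ties to the kdrl:GFP positive or the negative cells, so levels in those populations were not used here, and no comparison between populations was made. With 1 library there is no error between samples, no test was run, and each level is set against other genes of that library.

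Values are FPKM, fragments scaled by transcript length and by library size, which allows levels of different genes to be set side by side within the library. The median symbol stood at 5.98 FPKM, 39.96% of symbols reached 10 FPKM, and 5.51% reached 100 FPKM. The cells' label was checked against 10 endothelial markers found in the table, which stood between 89.1 FPKM (tek, an angiopoietin receptor) and 843 FPKM (cdh5, the endothelial cadherin), with a median of 289 FPKM. These markers include kdrl, whose regulatory region drove the mCherry used for sorting, so kdrl is no independent check. No source used here gives the sequencing depth, so it is unknown and the values carry no counting interval. In a bulk library, fewer red cells and less globin RNA per cell cannot be told apart.

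The embryonic alpha globin genes hbae3 and hbae1 stood among the most abundant symbols of the double positive cells, and the beta globin gene hbbe1.1 stood well below them. The alpha globin gene hbae3 was listed at 252 FPKM, rank 297, above 97.96% of the symbols. The other alpha gene, hbae1, was listed at 200.01 FPKM, rank 396, above 97.3% of the symbols. The level of hbae3 was 1.26 times that of hbae1, so the 2 alpha genes lay close together, with hbae3 giving 55.8% of their sum. The beta globin gene hbbe1.1 was listed at 28.5 FPKM, rank 2871, above 80.3% of the symbols. Its level was 4.77 times the median of the library, whereas hbae3 stood at 42.2 times and hbae1 at 33.5 times that median.

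A hemoglobin molecule holds alpha and beta chains in equal number, but the listed levels of the alpha and beta genes were far from equal. The summed level of hbae1 and hbae3 was 452 FPKM, against 28.5 FPKM for hbbe1.1, a ratio of 15.9. Taken singly, hbae3 was 8.85-fold and hbae1 7.02-fold above hbbe1.1. The table also lists si:busm1-118j2.5, a symbol that the current annotation gives as a synonym of hbbe1.1, at 7.97 FPKM. Adding it brings the beta level to 36.5 FPKM and the ratio of alpha to beta to 12.4. With every alpha and every beta globin symbol of the table, matched through synonyms, the sums were 452 and 47.01 FPKM and the ratio was 9.62. The alpha sum exceeded the beta sum under each of these ways of adding. It was 452 FPKM in each, so the size of the excess changed only with the beta symbols that were summed. The genes hbae1.2, hbae1.3, hbae5, hbbe1.2 and hbbe1.3 had no matched symbol and entered none of the sums under their own names. These ways of adding therefore cannot show whether the excess would hold with every copy counted.

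How reads were divided between similar copies is uncertain for hbae1 and hbbe1.1. In the current RefSeq annotation (assembly GRCz12tu) 17 alpha and beta globin genes lie in 2 clusters, 13 genes in the larger and 4 in the smaller. The larger cluster holds 3 hbae1 genes (hbae1.1, hbae1.2 and hbae1.3) that alternate with 3 hbbe1 genes (hbbe1.1, hbbe1.2 and hbbe1.3), and hbae3 follows at their end. The double positive table has a single hbae1 entry, whose symbol is now a synonym of hbae1.1, and no entry for hbae1.2, hbae1.3, hbbe1.2 or hbbe1.3. The table of the kdrl:GFP cells was made with other gene identifiers. It pairs the symbol hbae1 with 2 Ensembl genes, ENSDARG00000089475 (now hbae1.1) and ENSDARG00000089124 (now hbae1.3), and it holds hbbe1.1 (ENSDARG00000089963) and hbbe1.2 (ENSDARG00000090689) apart. The entry hbae3 corresponds to 1 gene there, ENSDARG00000079305, but whether it shares reads with the hbae1 copies was not tested. Whether the hbae1 value holds reads of 1 copy or of several, and whether reads of the hbbe1 copies that lack an entry were given to hbbe1.1 or dropped, was not tested.

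Among all globin symbols that could be matched, those of embryonic genes held all of the listed signal. Of the 17 genes, 12 had at least 1 matched symbol in the table. These came to 14 symbols, since hbbe1.1 had a second name and ba2 is an older name shared by 2 adult genes. The 7 symbols of adult genes (hbaa1, ba1, ba1l, ba2, si:ch211-5k11.6, si:xx-by187g17.1 and zgc:92880) were each listed at 0. Of the 7 symbols of embryonic genes, 6 were above 0. Over all symbols of the library, 12.7% were listed at 0. The members hbae1, hbae3 and hbbe1.1 took 96.3% of the summed globin level of 499.1 FPKM. A listed 0 in this table is no proof of absence, since the proteasome gene psmd7 and the replication gene mcm2 are also listed at 0.

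**Figure D1:**
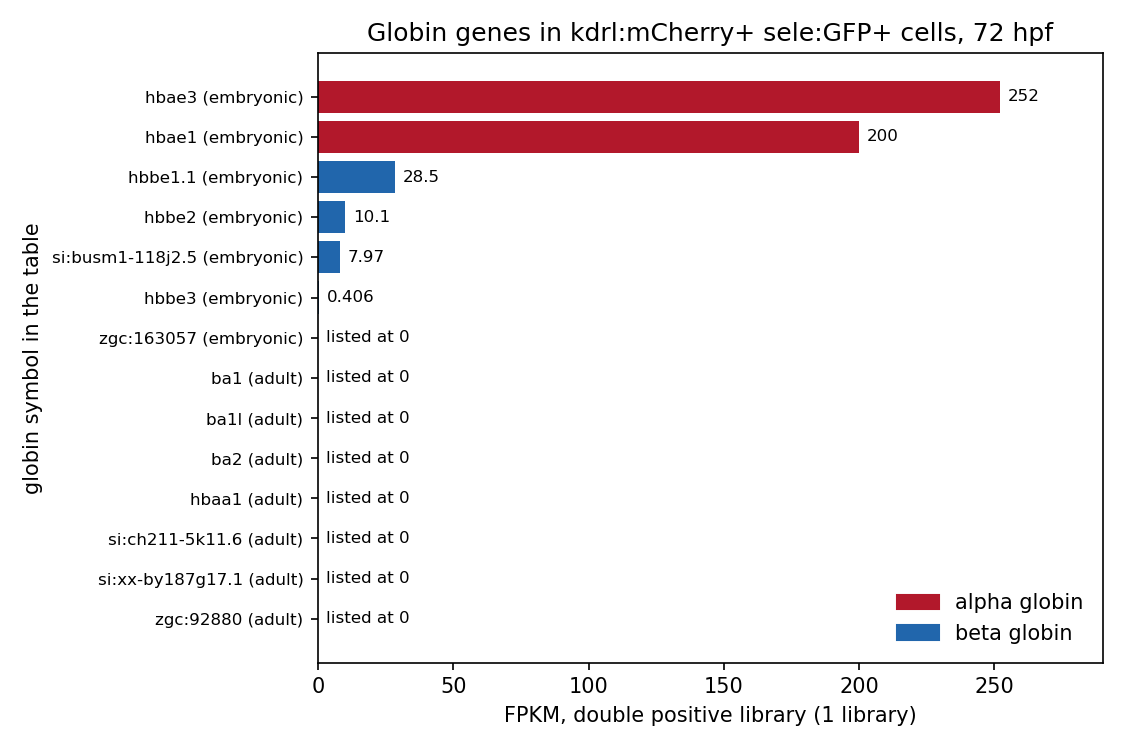
Level of each globin symbol found in the double positive library, in FPKM on a linear axis that starts at 0, with embryonic genes above adult ones, alpha genes in red and beta genes in blue (1 library, no error bars). The bars of hbae3 (252 FPKM) and hbae1 (200.01 FPKM) exceed that of hbbe1.1 (28.5 FPKM), and all 7 adult symbols are listed at 0.

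The smaller globin cluster was represented mainly by hbbe2. This embryonic beta globin gene was listed at 10.1 FPKM, rank 5774, so hbbe1.1 stood 2.81-fold above it and hbae3 24.8-fold above it. The second beta gene of that cluster, hbbe3, was listed at 0.406 FPKM, and zgc:163057, now the alpha gene hbae4, was listed at 0. The remaining alpha gene, hbae5, had no match under its current symbol or synonyms. The table of the kdrl:GFP cells names it hbz, and whether that name was listed here was not tested separately. Among the matched symbols, alpha signal was thus listed only for the larger cluster, while beta signal was listed for both.

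Genes that border the clusters and had a matched symbol showed no common level. On the hbae3 side of the larger cluster, kank2, dock6 and angptl8 had no matched symbol, so no level could be read there. Beside the larger cluster lie nprl3, a regulator of nutrient signalling whose introns hold the main alpha globin enhancers in mammals, and the DNA repair gene mpg, and these were listed at 8.32 and 4.40 FPKM. Next to the smaller cluster lie the aquaporin genes aqp8a.2 and aqp8a.1, listed at 0.135 and 568 FPKM. The endothelial water channel gene aqp8a.1 was therefore more abundant than any globin gene, and the nearer aqp8a.2 was below hbbe3. The forkhead gene foxj1b, a factor of ciliated cells on the other side of that cluster, was listed at 1.04 FPKM. Farther out, rhbdf1 beside the larger cluster was listed at 33.5 FPKM, and mgrn1a and lcmt1 beside the smaller at 23.4 and 6.94 FPKM.

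In the plot of all symbols by place, the alpha globin genes lay below the endothelial reporter gene. The Vegf receptor gene kdrl, whose regulatory region drove mCherry, was 1.70 times as high as hbae3, 2.14 times as high as hbae1 and 15.02 times as high as hbbe1.1. The cadherin gene cdh5 stood 3.34-fold above hbae3 and 29.6-fold above hbbe1.1. Of the 10 endothelial markers, 5 were above hbae3, 6 above hbae1 and all 10 above hbbe1.1. Of all symbols, 2.04%, 2.72% and 19.7% stood at or above these globin genes, in that order. The 3 globin genes together took 0.0899% of the summed FPKM of the library.

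**Figure D2:**
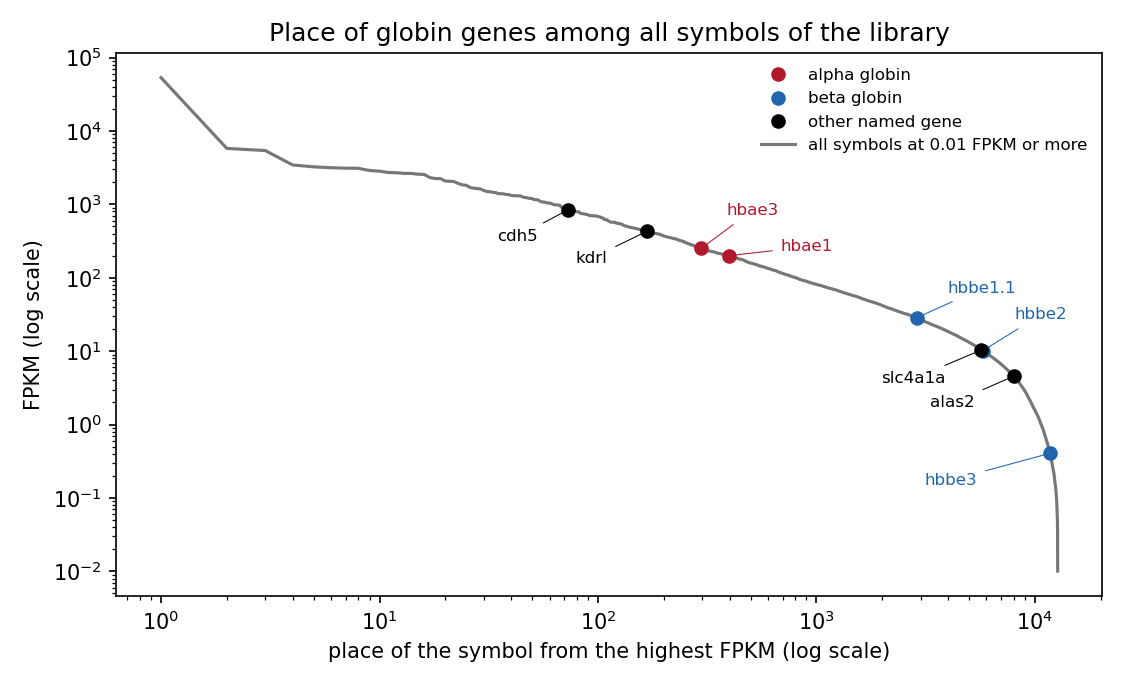
FPKM of every symbol at 0.01 FPKM or more against its place from the highest, both on log scales, in the double positive library. The alpha genes hbae3 (rank 297) and hbae1 (rank 396) lie below kdrl (rank 167), whereas hbbe1.1 (rank 2871), hbbe2 and hbbe3 lie farther down the curve.

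The symbols closest to each globin gene in level belonged to varied processes. Around hbae3 the 3 next higher were snx1a (a sorting nexin of endosomes), qkia (an RNA-binding protein) and a symbol with a provisional name, and the 3 next lower were zfp36l1a (an RNA decay factor), cct4 (a chaperonin subunit) and another provisional symbol, with levels between 250.8 and 253.8 FPKM. Around hbae1 they were cct2 (another chaperonin subunit), ywhaz (an adaptor protein) and sub1a (a transcription coactivator) above, and the Vegf receptor gene kdr, zgc:55512 and ube2na (a ubiquitin-conjugating enzyme) below, between 199.1 and 200.7 FPKM. Around hbbe1.1 they were mzt2b, pak1ip1 and dido1 above, and suv420h2 and lcp2a (an adaptor of blood cell signalling) below, between 28.49 and 28.56 FPKM. Likeness here is only the difference in FPKM in 1 library.

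Most other genes of the red cell lists were listed below the alpha globin genes, as were most symbols of the library. In 4 lists of genes for heme synthesis, iron and heme handling, erythroid regulation and the red cell membrane and enzymes, 76 genes were found, with a median of 12.1 FPKM, which is above 63.8% of the symbols. Of these 76 genes, 45 reached 10 FPKM and 7 reached 100 FPKM, beside 39.96% and 5.51% of all symbols. Of the 76, 3 stood above hbae3 and hbae1, namely aqp1a.1, fth1a and rhag, and 20 stood above hbbe1.1. Over all symbols, 2.04% were at or above hbae3, 2.72% at or above hbae1 and 19.7% at or above hbbe1.1. Standing below the alpha genes is therefore not particular to the red cell lists. Many of the listed genes also act in other cells, so a level in these lists is not a measure of red cells alone.

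Heme is the oxygen-binding group that every globin chain needs. All 10 of its synthesis genes found exceeded 1 FPKM, 5 exceeded 10 FPKM and none reached 100 FPKM. Over all symbols, 73.3% reached 1 FPKM, 39.96% reached 10 FPKM and 5.51% reached 100 FPKM. The median of the 10 genes was 10.7 FPKM, above 61.6% of the symbols. The enzyme gene alas2, which starts heme synthesis in red cells and is lost in the zebrafish mutant sauternes, was listed at 4.56 FPKM, below the library median. Its counterpart for other cells, alas1, was listed at 43.8 FPKM, 9.61 times as high. The level of hbae3 was 55.3 times, that of hbae1 43.9 times and that of hbbe1.1 6.25 times that of alas2. The next steps of the pathway were alad at 33.2 FPKM, hmbsb and hmbsa at 11.5 and 4.10 FPKM, uros at 13.97 FPKM and urod, the gene of the mutant yquem, at 20.3 FPKM. They were followed by cpox at 7.51 FPKM and ppox at 6.78 FPKM. The gene of the last step, fech, which inserts iron and is lost in the mutant dracula, was listed at 9.97 FPKM.

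Genes for iron and heme handling had a median of 10.6 FPKM over 22 members, and slc25a28 was listed at 0. Of these members, 12 exceeded 10 FPKM, beside 39.96% of all symbols. The iron storage gene fth1a, a ferritin heavy chain of many cell types, was the highest at 329 FPKM, above hbae3. The iron exporter gene slc40a1, lost in the mutant weissherbst, was listed at 72.2 FPKM. Other high members were glrx5 (iron-sulfur cluster assembly) at 34.6 FPKM, the iron importer slc11a2, which red cells need and which is lost in the mutant chardonnay, at 27.2 FPKM, and the transferrin gene tfa at 25.7 FPKM. The transferrin receptor gene tfr1a, lost in the mutant chianti, was listed at 17.8 FPKM, and the mitochondrial iron importer slc25a37, lost in frascati, at 9.05 FPKM. The beta globin gene hbbe1.1 was 1.60 times as high as tfr1a.

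Regulators of red cell genes had the highest median of the 4 lists, 19.2 FPKM over 23 members, and the members at the top are not restricted to red cells. The highest were the E-protein genes tcf3a and tcf3b at 148 and 147 FPKM, klf3 at 143 FPKM, the survival gene bcl2l1 at 92.2 FPKM and lmo2, which endothelium and blood progenitors share, at 71.3 FPKM. Factors known for their part in red cell formation lay on both sides of that median. Above it were zfpm1, a cofactor of Gata factors, at 47.7 FPKM, gfi1b at 42.6 FPKM and tal1 at 33.5 FPKM. The erythroid factor gene gata1a, lost in the mutant vlad tepes, was listed at 8.95 FPKM, and hbae3 was 28.2 times as high. The Krüppel-like factor genes klfd (now klf1) and klf17 were listed at 3.46 and 25.3 FPKM, and the erythropoietin receptor gene epor at 11.8 FPKM.

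The list of red cell membrane and enzyme genes ranged most widely, with a median of 12.2 FPKM over 21 members. It ran from 0.135 FPKM for rhcga, whose part in red cells was likewise not checked, to 908 FPKM for aqp1a.1. The water channel gene aqp1a.1 is used by red cells and by arterial endothelium. The gene rhag, whose product is an ammonia channel of the red cell membrane, was listed at 298 FPKM and was 1.18 times as high as hbae3. It was followed by the antioxidant gene prdx2 at 157 FPKM, the hematopoietic death receptor gene hdr at 75.2 FPKM and hbegfa at 44.6 FPKM, a growth factor gene that is not known as a red cell gene. Other genes known for their part in red cells lay on both sides of the list median. The membrane skeleton genes dmtn and sptb were listed at 23.5 and 14.1 FPKM. The list also held the carbonic anhydrase gene ca2 at 24.8 FPKM, whose part in red cells was not checked. The anion exchanger gene slc4a1a, lost in the mutant retsina, was listed at 10.4 FPKM, and hbae3 was 24.2 times as high. A further membrane skeleton gene, epb41b, and the carbonic anhydrase gene cahz were listed at 2.14 and 5.31 FPKM.

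**Figure D3:**
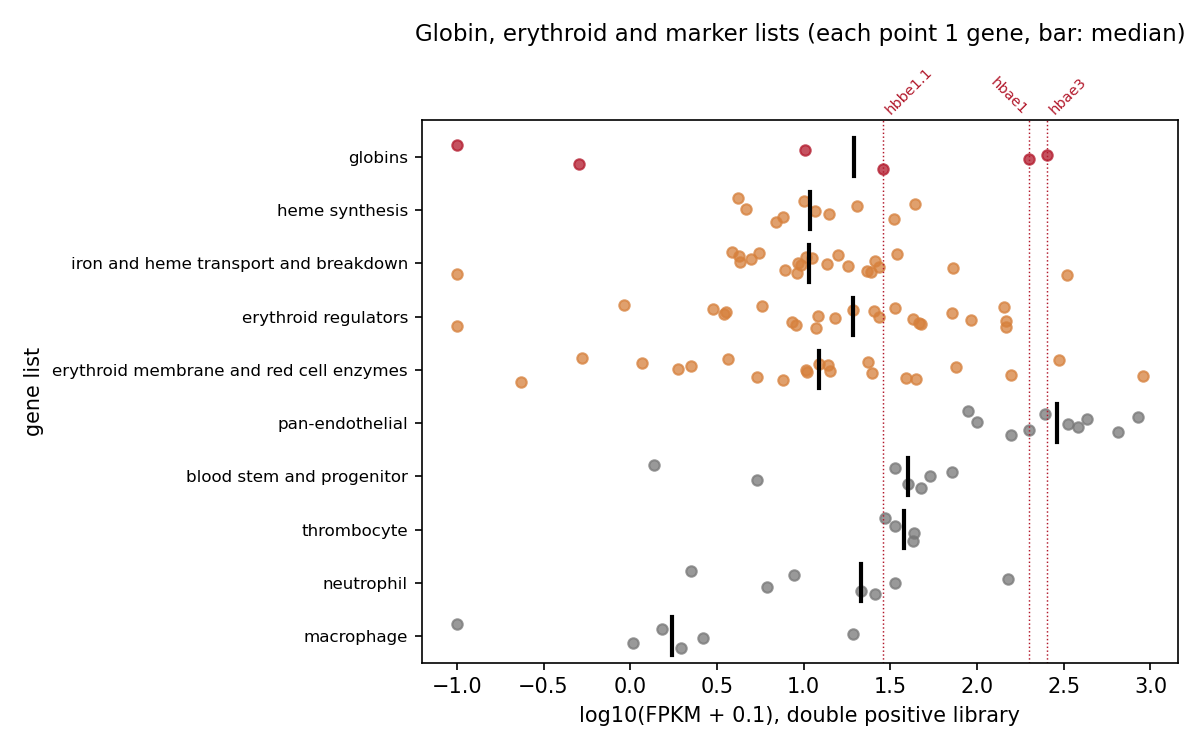
Level of every found member of the globin list, the 4 red cell lists and 5 marker lists in the double positive library, as log10(FPKM + 0.1), with 1 point per gene, the list median as a black bar and dotted lines at hbbe1.1, hbae1 and hbae3. The alpha globin lines lie within the endothelial markers and to the right of most red cell genes, and listed zeros stand at the left edge.

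Set beside markers of 6 other cell types, the alpha globin genes stood higher than each of the 38 markers found. None of them (blood stem and progenitor, thrombocyte, neutrophil, macrophage, fast muscle and neuron markers) was above hbae1 or hbae3, and 13 were above hbbe1.1. Over all symbols, 2.04% stood at or above hbae3, 2.72% at or above hbae1 and 19.7% at or above hbbe1.1. For the alpha genes, none of 38 is thus close to the share over all symbols. Markers of other tissues, such as cartilage and skin, were not in these lists. The cartilage collagen gene col2a1a (1817 FPKM) and the keratin gene krt8 (1494 FPKM) stood above hbae3 and hbae1. The highest of the 38 was srgn, a proteoglycan gene of the neutrophil list, at 151 FPKM. The level of hbae3 was 1.67 times and that of hbae1 1.33 times that of srgn. The other members of the neutrophil list stood no higher than 33.4 FPKM. The other lists peaked at lmo2 (71.3 FPKM), the muscle parvalbumin gene pvalb1 (61.6 FPKM), the thrombocyte integrin gene itga2b (43.2 FPKM), the neuronal stathmin gene stmn2a (24.0 FPKM) and the leukocyte gene lcp1 (19.3 FPKM). The 3 globin genes summed to 481 FPKM. Summed over their found members, stem and progenitor markers came to 253 FPKM, neutrophil markers to 248 FPKM, fast muscle markers to 187 FPKM, thrombocyte markers to 149 FPKM, neuron markers to 75.98 FPKM and macrophage markers to 26.01 FPKM. The lists differ in length, and srgn alone gave 151 FPKM of the neutrophil sum, so these sums do not measure cell content. The neuron marker gap43 and the macrophage marker cd74a were listed at 0. Globin RNA is very abundant in red cells, and how many red cells the sorted cells held was not tested.

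Globins outside the red cell clusters stood below the library median of 5.98 FPKM, 2 of them close to it. The myoglobin gene mb was listed at 5.30 FPKM and globin X, xgb, at 5.67 FPKM, above 47.9% and 49.0% of the symbols. The cytoglobin genes cygb1 and cygb2 were listed at 1.74 and 0.212 FPKM, and the neuroglobin gene ngb at 0.526 FPKM. The highest of these 5 lay below hbbe1.1 and below hbbe2.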

How the data were processed

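RNA was measured in 3 libraries, 1 per sorted population, and the double positive library was analysed. Per the labels' protocols, a low-input kit was used on 50 ng of total RNA after depletion of ribosomal RNA. Per the submitters' processing notes, the tools were TopHat2 2.0.11, Cufflinks 2.2.1 and cutadapt, and the genome build was danRer7 (Zv9). The values are FPKM as the authors deposited them, named so in the deposited sheet. The annotation and the handling of multi-mapped reads, which set the level of each globin copy, are not stated in those sources.

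The deposited kdrl:GFP table was used for its pairing of symbols with identifiers, a unit other than a measurement. Its 2 value columns were not used. The planned comparison of the kdrl:GFP populations, with its alternatives, was therefore not made.

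Ranks count symbols with a higher FPKM. A percentile is the percent of the 14581 symbols with a lower FPKM. Ranking was tested on simulated data. Synonyms and gene order came from RefSeq, assembly GRCz12tu, which is not the build of the data, so no coordinates are given. Symbols of the 13 gene lists were matched exactly. The members and lists were chosen with earlier results of these data known. Named genes are the members, every other globin symbol found, 3 symbols on either side of each member in FPKM, the 5 highest of each red cell list with its red cell genes, and the highest of each marker list. Of these, 1 gene is not reported here. Cluster neighbours, hmbsa, cpox, ppox, fech, zfpm1, gfi1b, tal1, ca2, dmtn, sptb, rhcga, slc25a28, tek, gap43, cd74a, psmd7, mcm2 and the globin synonyms were named after their values were seen. So were col2a1a and krt8. Alternatives were the symbols ranked, a pseudocount of 1 FPKM, and the members of each sum or list. Python 3.11.15, pandas 2.3.3, numpy 2.4.6 and matplotlib 3.10.9 were used.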

Additional observations from a re-analysis of the deposited data

How the results depend on the processing

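Ranked among symbols above 0 FPKM, hbae3, hbae1 and hbbe1.1 stood above 97.7%, 96.9% and 77.4% of symbols, and among symbols of at least 1 FPKM above 97.2%, 96.3% and 73.1%. Without microRNA, other small RNA, ribosomal protein and mitochondrial genes they stood above 98.4%, 97.7% and 80.4%, and their share of the summed FPKM was 0.124%. The ratio of alpha to beta globin was 15.4 with a pseudocount of 1 FPKM and 11.6 with every globin symbol of the list. In alternatives chosen after seeing the data it was 9.62 with symbols matched through synonyms and 12.4 with the second hbbe1.1 symbol. Limited to members of at least 1 FPKM, the medians were 11.0026 FPKM for iron and heme handling, 25.3 FPKM for regulators and 13.8 FPKM for membrane and enzymes. Without members shared with other lists, the median of regulators was 14.97 FPKM. The other list medians came out as reported under these settings. No paired analysis was possible because there was 1 library per group. Depth is unknown, so how far counting error limits low values such as hbbe3 cannot be stated. A library without replicates gives no measure of how far any of these levels would vary in another sort.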
